A study of Mus musculus with 6 samples.

Results

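Amino acid catabolism enzymes are the proteins with which a hepatocyte breaks down tryptophan, tyrosine, histidine, serine, glycine, methionine, proline, glutamine, lysine and the branched-chain amino acids. A named list of 43 such genes was looked up by symbol among the 52323 genes of the count table, and 42 of the 43 had a row. The exception was Gstz1-ps, which had none. All 42 passed the filter on low counts, beside 19135 genes that passed in all. RNA had been sequenced from damaged hepatocytes (dHeps) in bulk. These cells came from livers of AAV-TBG-Cre:Rosa-LSL-tdTomato mice injured by repeated CCl4, a hepatotoxin, and all 3 groups shared that genotype and injury. The TBG promoter restricts Cre, and thus tdTomato, to hepatocytes, and the labels name no sort on tdTomato. dHeps were cultured for 16 days in serum-free Hepatocyte Maintenance Medium with DMSO, with 3C, or with 5C, in 2 libraries each. 3C combined a protein kinase D inhibitor (50 µM CID755673), a ROCK inhibitor (2 µM GSK429286A) and ETC-1002 (5 µM), which blocks ATP citrate lyase. 5C added forskolin (2 µM), which activates adenylate cyclase and raises cAMP, and the plant glycoside salidroside (5 µM) to these. The paper describes the n of its figure legends as biological replicates that are separate. No source used here states whether the replicates came from different animals, so that p-values measure the spread between these libraries, which may be technical.

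The liver is the main site of amino acid breakdown. Aminotransferases move the amino group onto α-ketoglutarate to make glutamate, glutamate dehydrogenase and glutaminase release ammonia, which enters the urea cycle, and the carbon skeletons go to glucose, ketone bodies or the one-carbon pool. Many of these enzymes are made mostly in hepatocytes and are used as signs of a mature hepatocyte, and several are known to be induced by glucagon, which acts through cAMP, and by glucocorticoids.

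Promoter sequence is shown for members whose levels carry the results below. The 250 bases before the start were read from RefSeq (GRCm38.p6) for 34 of the 43 members that matched by symbol, and 7 motifs were searched on both strands. The cAMP response element TGACGTCA was in 1.62% of 27025 promoters and in 0 of the 34. Its shorter form TGACG, which also lies within the longer one, was in 17.9% of promoters and in 4 of the 34 (Aass, Acmsd, Ftcd and Shmt1). The HNF4 motif CAAAGTCCA was in 0.381% of promoters and in 1 member, Agxt2. The HNF1 motif was in 0.0629% of promoters and in 1 member, Prodh2. The C/EBP motif TTGCGCAA (0.17% of promoters), the ATF4 and C/EBP composite TGATGNAAT (0.825%) and the FOXA motif TGTTTAC (3.09%) were in 0 of the 34. A match is a description of letters and not a measured site. Below are the members with an HNF4 or HNF1 match, and the neighbouring steps of histidine breakdown, Ftcd, with a TGACG match, and Uroc1, with none. All 4 lie on the plus strand at chr15:10358283-10358532, chr7:30493408-30493657, chr10:76575398-76575647 and chr6:90333039-90333288, are written 5′ to 3′ and end at the base before the start, with motif matches in capitals.
Agxt2: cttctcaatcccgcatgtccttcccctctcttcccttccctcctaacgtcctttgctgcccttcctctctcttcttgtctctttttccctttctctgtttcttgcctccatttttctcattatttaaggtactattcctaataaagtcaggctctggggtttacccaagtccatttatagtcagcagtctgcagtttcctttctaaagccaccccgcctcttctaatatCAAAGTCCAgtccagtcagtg
Prodh2: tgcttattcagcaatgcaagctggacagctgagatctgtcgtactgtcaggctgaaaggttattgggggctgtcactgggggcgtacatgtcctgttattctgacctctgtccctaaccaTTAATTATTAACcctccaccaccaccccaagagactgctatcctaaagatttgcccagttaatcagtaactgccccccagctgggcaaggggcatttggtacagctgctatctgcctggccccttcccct
Ftcd: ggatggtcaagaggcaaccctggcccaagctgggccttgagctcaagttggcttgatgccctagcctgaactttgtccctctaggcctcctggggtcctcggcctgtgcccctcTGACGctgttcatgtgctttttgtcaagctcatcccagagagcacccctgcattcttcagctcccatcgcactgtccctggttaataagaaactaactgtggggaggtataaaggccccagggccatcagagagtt
Uroc1: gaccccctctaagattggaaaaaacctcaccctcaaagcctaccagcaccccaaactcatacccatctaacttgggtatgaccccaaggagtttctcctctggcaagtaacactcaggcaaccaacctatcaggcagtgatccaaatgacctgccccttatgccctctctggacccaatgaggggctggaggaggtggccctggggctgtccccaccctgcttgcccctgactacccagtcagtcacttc

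Values below are estimated counts scaled to the library total (CPM) unless a level per length (FPKM) is named. Library totals lay between 65916573 and 69245895 estimated counts. On the assumption that a fragment gave 4 units, 3 fragments corresponded to 0.173 to 0.182 CPM. A gene was called when edgeR's quasi-likelihood test gave a Benjamini-Hochberg adjusted p under 0.05 over all genes and the absolute log2 fold change was above 1. Each replicate resembled its partner (lowest Pearson's r of log2 CPM across genes, which are not independent replicates, 0.975) more than any library of another group (highest r 0.969). The cell type label was checked against 14 hepatocyte markers, of which 13 had a row. Their summed level was 3154 to 3532 CPM in DMSO, 16173 to 16883 in 3C and 17046 to 22856 in 5C, and 12 were called higher in 5C and 13 in 3C than in DMSO. Albumin (Alb) stood at 1357 and 1182 CPM in DMSO, 7402 and 7769 in 3C, and 6766 and 10400.2 in 5C, so that hepatocyte markers were present in every group, except that Asgr1 had no count in DMSO replicate 2. The 14 macrophage markers summed to 12454 to 13361 CPM in DMSO, 4283 to 4294 in 3C and 2795 to 2897 in 5C. Of these, 12 were called lower in each cocktail than in DMSO, and none was at 0 in any library. In bulk RNA, fewer cells of a type and less RNA per cell cannot be told apart. Endothelial markers summed to 355 to 378 CPM in DMSO, 104 to 144 in 3C and 175 to 266 in 5C (of 9 tested, 6 called higher and 2 lower in 5C, and 4 and 2 in 3C, against DMSO). Of these, Clec4g had 0 counts in 5 of the 6 libraries. Cholangiocyte markers summed to 2928 to 3419, 3594 to 3781 and 2424 to 2729 CPM in the same order (of 8, 4 called higher in 5C and 6 in 3C). Mesothelial markers summed to 972 to 1182, 1257 to 1401 and 2295 to 2401 CPM (of 6, 5 and 1), and stellate and fibroblast markers to 8031 to 9349, 7107 to 7221 and 11655 to 12597 CPM (of 11, 3 called higher in 5C, and 2 higher and 2 lower in 3C). In DMSO, the base of the fold changes against it, the macrophage sum and the stellate and fibroblast sum both lay above the hepatocyte sum. Per length, macrophage markers summed there to 8715 to 9034 FPKM and hepatocyte markers to 1540 to 1702 FPKM. Sums over lists of different genes are no cell shares, so that these markers did not settle the cell type label in DMSO. The part of these shifts in the differences of the enzymes was not tested.

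**Figure D1:**
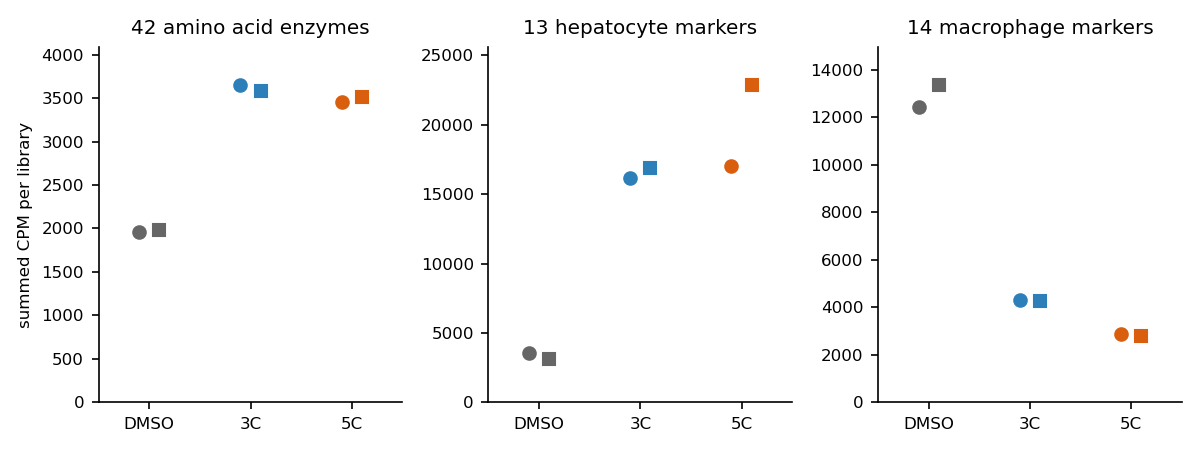
Summed CPM per library (y axis, from 0) of the 42 amino acid enzymes, 13 hepatocyte markers and 14 macrophage markers in DMSO, 3C and 5C (x axis), with circles for replicate 1 and squares for replicate 2. The enzymes sum to 1965 to 1983 CPM in DMSO and to 3457 to 3649 CPM in the cocktail libraries, while the macrophage markers are highest in DMSO.

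Most of these enzymes were higher with either cocktail than with DMSO, and none was called lower. In 5C against DMSO, 26 of 42 were called higher and 0 lower, beside 7.3% called higher and 4.42% called lower among all 19135 genes. For 3C against DMSO these counts were 28 and 0, beside 5.83% and 3.62% of all genes. Both counts use the same DMSO libraries. Of the lower values, 2 of 42 in each comparison had an unadjusted p under 0.05, and DESeq2 called 0. The median log2 fold change of the members was 1.85 in 5C and 1.75 in 3C, beside 0.0041 and 0.0088 over all genes tested. Summed over the 42 enzymes, the level was 1965 to 1983 CPM in DMSO, 3584 to 3649 in 3C and 3457 to 3515 in 5C. Of 9 members with a mean of at least 20 FPKM in DMSO (Glud1, Oat, Ahcy, Gpt2, Got2, Got1, Mat2a, Bckdha and Cth), 1 was called in either comparison (Gpt2). Of 14 with a mean under 1 FPKM in DMSO, 13 were called. The DMSO level used for this split is also the base of the fold change, so that the split is a description. The share of all genes called at these DMSO levels was not computed, so that the split shows nothing particular to these enzymes.

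**Figure D2:**
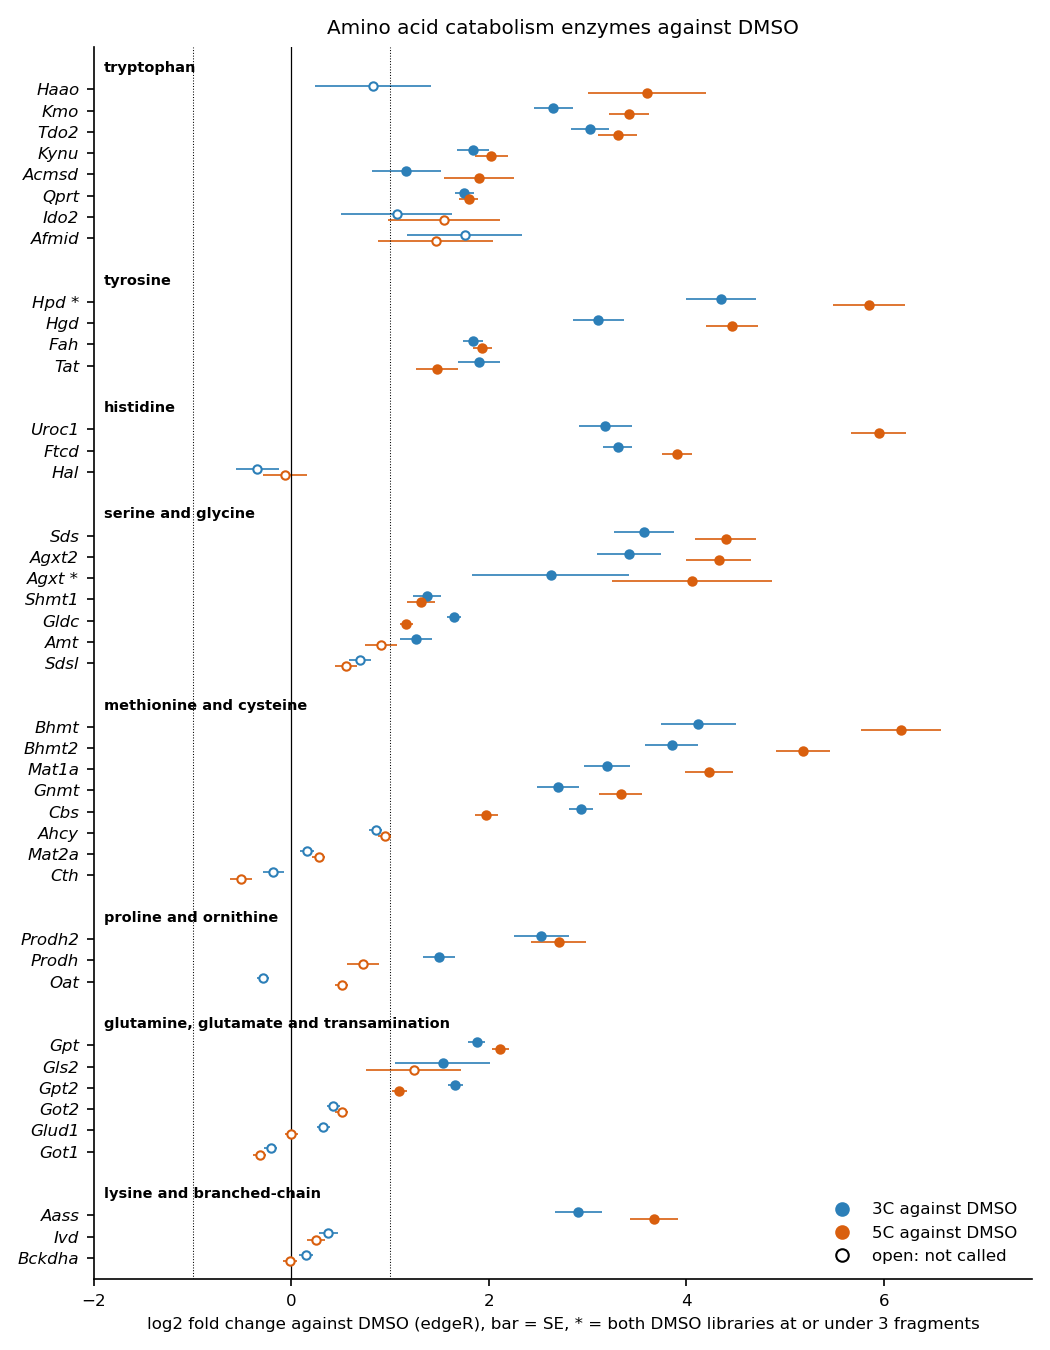
Log2 fold change against DMSO from edgeR (x axis) of the 42 enzymes by pathway (y axis) for 3C (blue) and 5C (orange), with bars for the SE, filled circles for called values and dotted lines at the fold threshold. Values run from -0.51 (Cth in 5C) to 6.17 (Bhmt in 5C). Hpd and Agxt, marked with an asterisk, are at or under 3 fragments in both DMSO libraries, so that their fitted values are no bounds.

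Tryptophan breakdown starts with ring-opening dioxygenases, of which Tdo2 and Ido2 are members. It runs through formamidase (Afmid), kynurenine 3-monooxygenase (Kmo), kynureninase (Kynu) and Haao to a branch point. There Acmsd leads to complete oxidation and Qprt to NAD. Of the 8 members, 6 were called higher in 5C (median log2 fold change 1.96) and 5 in 3C (1.75). Tdo2, the hepatic rate-limiting enzyme, stood at 7.43 and 4.85 CPM in DMSO, 52.2 and 49.9 in 3C, and 54.2 and 65.3 in 5C. Its log2 fold change against DMSO was 3.30 ± 0.20 (SE, adjusted p = 1.42e-05) in 5C and 3.02 ± 0.20 (SE, adjusted p = 3.07e-05) in 3C, and the cocktails differed by 0.28 ± 0.17 (SE, adjusted p = 0.404). Of its exon bases, 49.7% overlap Ctso on the other strand, and the kit named in the labels does not mark strand. Ido2, the other dioxygenase among the members, was not called. It stood at 0.110 and 0.129 FPKM in DMSO, 0.155 and 0.415 in 3C, and 0.245 and 0.431 in 5C. Per length, Tdo2 stood at 2.08 and 1.30 FPKM in DMSO, 13.9 and 13.4 in 3C, and 14.5 and 17.1 in 5C. Kmo measured 1.03 and 1.02 CPM in DMSO, 7.01 and 6.16 in 3C, and 10.8 and 10.8 in 5C, with log2 fold changes of 3.42 in 5C and 2.65 in 3C. In 5C against 3C, Kmo differed by 0.76 ± 0.18 (SE, adjusted p = 0.0227), short of the fold threshold, and the 3 groups did not overlap. Kynu measured 3.39 and 3.00 CPM in DMSO, 12.7 and 10.7 in 3C, and 12.7 and 13.0 in 5C, with log2 fold changes of 2.02 in 5C and 1.84 in 3C. Qprt rose to nearly equal levels in both cocktails (10.8 and 11.3 CPM in DMSO, 38.4 and 37.7 in 3C, and 39.6 and 36.3 in 5C), and the difference between them was 0.05 ± 0.09 (SE, adjusted p = 0.837).

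Haao, which makes the precursor of quinolinate, was the 1 tryptophan enzyme called between the cocktails. Of its exon bases 10.8% overlap a gene on the other strand. It measured 0.313 and 0.182 CPM in DMSO, 0.211 and 0.689 in 3C, and 3.37 and 2.60 in 5C, so that the 3C libraries overlapped DMSO and the 5C libraries lay above both. Its log2 fold change was 3.60 ± 0.60 (SE, adjusted p = 0.00176) in 5C against DMSO, 0.83 ± 0.59 (SE, adjusted p = 0.374) in 3C against DMSO and 2.77 ± 0.56 (SE, adjusted p = 0.0126) in 5C against 3C. In DMSO it counted 21 and 12 units, and 12 units is the floor of 3 fragments, so that its fold against DMSO is imprecise. Leaving out a library leaves 1 in its group, which the fit assumes to vary like the other groups. Without 3C replicate 2 the 3C value turned to -0.26. Between the cocktails, the adjusted p of Haao rose to 0.0596 without 3C replicate 1, 0.0791 without 5C replicate 1 and 0.0503 without 5C replicate 2, while the log2 fold change stayed at 2.16, 2.58 and 2.93. Acmsd measured 0.774 and 0.516 CPM in DMSO, 1.43 and 1.52 in 3C, and 2.52 and 2.25 in 5C, with groups that did not overlap. Its call in 3C (1.17 ± 0.35 SE, adjusted p = 0.0406) was lost without any 1 of the DMSO replicate 2 and the 3C libraries (adjusted p 0.126 to 0.16, log2 fold change 0.92 to 1.21). Afmid, not called, had 3C replicates that spread more than the other groups. It measured 3.32 and 1.50 CPM in DMSO, 4.30 and 12.3 in 3C, and 5.89 and 7.18 in 5C. Of its 50-base words, 61.4% also occur in other genes, with the read-through transcript Gm20708 sharing the most.

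All 4 measured enzymes of tyrosine breakdown were called higher in both cocktails, with a median log2 fold change of 3.20 in 5C and 2.50 in 3C. They act in the order Tat, Hpd, Hgd and Fah. Tat, the aminotransferase and a classic glucocorticoid- and cAMP-induced gene, stood at 34.0 and 21.7 CPM in DMSO, 105 and 107 in 3C, and 69.2 and 83.5 in 5C. Its values were higher in both 3C libraries than in the 5C libraries, with a difference of -0.42 ± 0.20 (SE, adjusted p = 0.287). Hpd, which makes homogentisate, measured 0.179 and 0.167 CPM in DMSO, 3.99 and 3.31 in 3C, and 7.51 and 12.3 in 5C. Both DMSO libraries were at or under 3 fragments (12 and 11 units), so that the fold is imprecise. Set against the floor of 3 fragments, Hpd was 20.2-fold higher in 3C and 54.9-fold higher in 5C. These folds are close to the fitted 20.5 and 57.6 and are no lower bounds. Hgd, homogentisate dioxygenase, measured 0.447 and 0.683 CPM in DMSO, 4.62 and 5.38 in 3C, and 11.7 and 12.9 in 5C, and its 3 groups were apart. The log2 fold change against DMSO was 1.48 for Tat, 4.46 for Hgd and 1.93 for Fah in 5C, and 1.90, 3.11 and 1.84 in 3C. Fah, the last enzyme, which yields fumarate and acetoacetate, was about as high in 3C as in 5C (21.3 and 24.2 CPM in DMSO, 81.0 and 85.6 in 3C, and 81.5 and 89.9 in 5C). The cocktails differed by 1.50 ± 0.28 (SE, adjusted p = 0.00807) for Hpd, 1.35 ± 0.23 (SE, adjusted p = 0.00512) for Hgd and 0.09 ± 0.09 (SE, adjusted p = 0.632) for Fah. With 1 library left in a group, the adjusted p of Hpd missed the threshold without 3C replicate 2 (0.073, log2 fold change 1.37) or 5C replicate 2 (0.0876, 1.07), and that of Hgd without 3C replicate 1 (0.053, 1.25).

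Histidine breakdown starts with histidase (Hal), goes on with urocanase (Uroc1) and ends with Ftcd, which passes the formimino group to tetrahydrofolate. Uroc1 and Ftcd were called higher in both cocktails, and Hal was not called. Hal measured 10.2 and 8.68 CPM in DMSO, 7.97 and 7.23 in 3C, and 7.02 and 10.8 in 5C, with overlapping ranges in 5C and DMSO, and log2 fold changes of -0.06 (adjusted p = 0.874) in 5C and -0.34 (adjusted p = 0.324) in 3C. The 5C value of Hal turned to 0.046 without DMSO replicate 1 and to 0.22 without 5C replicate 1. Uroc1 measured 0.655 and 0.319 CPM in DMSO, 4.14 and 4.91 in 3C, and 31.5 and 28.1 in 5C. Both 5C libraries were more than 5 times as high as either 3C library, and the log2 fold change was 5.95 ± 0.28 (SE, adjusted p = 1.09e-06) in 5C, 3.18 ± 0.27 (SE, adjusted p = 3.96e-05) in 3C and 2.77 ± 0.23 (SE, adjusted p = 0.000258) between them. Of the 7 calls between the cocktails, that of Uroc1 was kept in all 16 alternatives run. In DMSO it counted 44 and 21 units, so that its fold against DMSO is imprecise. In 3C against DMSO, Uroc1 fell to 0.96 on log2(FPKM + 1), short of the fold threshold. Ftcd, whose promoter holds the TGACG match shown above, measured 3.96 and 2.79 CPM in DMSO, 34.3 and 33.8 in 3C, and 50.9 and 49.0 in 5C, with 3.91 ± 0.15 (SE, adjusted p = 4.3e-07) in 5C, 3.30 ± 0.15 (SE, adjusted p = 1.97e-06) in 3C and 0.60 ± 0.13 (SE, adjusted p = 0.0172) between the cocktails, which is short of the fold threshold.

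Of the 7 serine and glycine enzymes, 5 were called higher in 5C (median log2 fold change 1.31) and 6 in 3C (1.65). Serine dehydratase (Sds), which makes pyruvate from serine and is known as a glucagon-induced gene, measured 0.342 and 0.622 CPM in DMSO, 6.25 and 5.53 in 3C, and 9.18 and 10.9 in 5C. That is 4.40 ± 0.31 (SE, adjusted p = 9.88e-06) in 5C and 3.57 ± 0.30 (SE, adjusted p = 4.11e-05) in 3C, and 26.9% of its exon bases overlap genes on the other strand. Its relative Sdsl was not called (14.3 and 14.7 CPM in DMSO, 24.8 and 23.1 in 3C, and 22.6 and 19.5 in 5C). Per length, Sdsl exceeded Sds in every library, by 18.8 to 30.2 times in DMSO, 3.11 to 3.22 times in 3C and 1.39 to 1.96 times in 5C. Agxt2, a mitochondrial aminotransferase that uses glyoxylate, stood at 0.268 and 0.258 CPM in DMSO, 2.46 and 3.33 in 3C, and 4.71 and 5.78 in 5C, with 4.33 in 5C and 3.42 in 3C on the log2 scale from 18 and 17 units in DMSO, close to the floor of 12, and its HNF4 match begins 21 bases before the start in the sequence above, which belongs to the first of 2 starts that RefSeq lists. Peroxisomal Agxt was low throughout, with 0.0596 and 0.0607 CPM in DMSO, 0.559 and 0.220 in 3C, and 0.695 and 1.33 in 5C. Both DMSO libraries were under 3 fragments (4 units each), and Agxt passed the filter on low counts only through the cocktail libraries. Set against the floor of 12 units, its mean was 5.61-fold higher in 5C and 2.16-fold higher in 3C. The 3C libraries counted 37 and 15 units, the second close to that floor, so that these folds are imprecise. Agxt lost its 3C call without DMSO replicate 1 (adjusted p = 0.12), DMSO replicate 2 (0.105) or 3C replicate 1 (0.244), and its 5C call without 5C replicate 2 (0.0515), with log2 fold changes of 2.60, 2.65, 1.81 and 3.49.

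The glycine cleavage enzymes Gldc and Amt had their highest values in 3C. Gldc, the decarboxylase of the complex, measured 67.3 and 65.1 CPM in DMSO, 214 and 209.7 in 3C, and 152 and 141 in 5C, with no overlap among the 3 groups. Its log2 fold change was 1.16 ± 0.07 (SE, adjusted p = 3.01e-06) in 5C, 1.65 ± 0.07 (SE, adjusted p = 1.48e-06) in 3C and -0.48 ± 0.06 (SE, adjusted p = 0.00205) in 5C against 3C. Amt, the aminomethyltransferase, measured 4.06 and 4.38 CPM in DMSO, 10.2 and 10.6 in 3C, and 7.93 and 7.70 in 5C and was called in 3C (1.26 ± 0.16 SE, adjusted p = 0.00052) but not in 5C (0.91 ± 0.16 SE, adjusted p = 0.00301), while the difference between the cocktails was -0.36 ± 0.16 (SE, adjusted p = 0.213). Shmt1, which moves one-carbon units from serine to folate, stood at 6.31 and 7.18 CPM in DMSO, 19.3 and 16.5 in 3C, and 16.2 and 16.8 in 5C, with 1.31 in 5C, 1.37 in 3C and a difference of -0.06 ± 0.14 (SE, adjusted p = 0.853) between them.

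In methionine breakdown, the liver makes S-adenosylmethionine with Mat1a, uses it through Gnmt, hydrolyses the product with Ahcy, returns homocysteine to methionine with Bhmt and Bhmt2, or sends it to cysteine with Cbs and Cth. Of these 8 members with Mat2a, 5 were called higher in each cocktail, with a median log2 fold change of 2.66 in 5C and 2.82 in 3C. Bhmt, which uses betaine as methyl donor, measured 4.05 and 3.11 CPM in DMSO, 48.6 and 78.8 in 3C, and 212 and 296 in 5C, with 6.17 ± 0.40 (SE, adjusted p = 0.000666) in 5C, 4.12 ± 0.38 (SE, adjusted p = 0.00249) in 3C and 2.05 ± 0.32 (SE, adjusted p = 0.0249) between them. By mean FPKM among the 42 enzymes, Bhmt ranked 25 in DMSO, 14 in 3C and 5 in 5C. The 3C call of Bhmt was lost without DMSO replicate 2 (log2 fold change 3.96). Of its 50-base words, 11.8% occur in other genes, with Bhmt1b sharing the most. Its neighbour Bhmt2 measured 0.878 and 0.516 CPM in DMSO, 9.63 and 11.0 in 3C, and 21.0 and 29.0 in 5C, with 5.18 in 5C and 3.85 in 3C on the log2 scale, and its 3 groups did not overlap either. Per length, Bhmt exceeded Bhmt2 4.55 to 6.13 times in DMSO, 4.96 to 7.09 times in 3C and 9.98 to 10.1 times in 5C.

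Mat1a, the adult liver isoenzyme, measured 5.69 and 3.58 CPM in DMSO, 45.1 and 42.0 in 3C, and 74.3 and 97.1 in 5C, and its log2 fold change was 4.23 ± 0.24 (SE, adjusted p = 2.86e-05) in 5C and 3.20 ± 0.23 (SE, adjusted p = 0.000119) in 3C. Mat2a, the isoenzyme of fetal liver and of most other tissues, was not called, with 164 and 167 CPM in DMSO, 193 and 185 in 3C, and 204 and 192 in 5C, and 30.8% of its exon bases overlap genes on the other strand. Per length, Mat2a was 34.4 to 55.4 times Mat1a in DMSO, 4.92 to 5.09 times in 3C and 2.33 to 3.12 times in 5C, so that the ranges of the 3 groups did not overlap and Mat2a stayed the higher of the pair in all 6 libraries. Gnmt, an abundant methyltransferase of the adult liver, measured 1.62 and 1.37 CPM in DMSO, 8.88 and 10.9 in 3C, and 13.1 and 16.7 in 5C, with log2 fold changes of 3.34 in 5C and 2.70 in 3C and 24.5% antisense overlap. Ahcy was higher in both, short of the fold threshold, with 0.95 ± 0.07 (SE, adjusted p = 8.86e-06) in 5C and 0.86 ± 0.07 (SE, adjusted p = 2.27e-05) in 3C. Of the words of Ahcy, 76.8% occur in other genes, with Ahcyl sharing the most. Cbs, the entry to transsulfuration, was highest in 3C, with 9.47 and 12.1 CPM in DMSO, 85.2 and 83.3 in 3C, and 42.9 and 40.8 in 5C. The log2 fold change of Cbs was 1.98 ± 0.12 (SE, adjusted p = 4.43e-06) in 5C and 2.93 ± 0.12 (SE, adjusted p = 1.48e-06) in 3C, and -0.96 ± 0.11 (SE, adjusted p = 0.00115) in 5C against 3C. Cth, the next step, was not called and measured 49.4 and 60.5 CPM in DMSO, 51.6 and 47.6 in 3C, and 38.3 and 38.0 in 5C, and its values were -0.51 ± 0.11 (SE, adjusted p = 0.00725) in 5C and -0.18 ± 0.11 (SE, adjusted p = 0.287) in 3C.

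**Figure D3:**
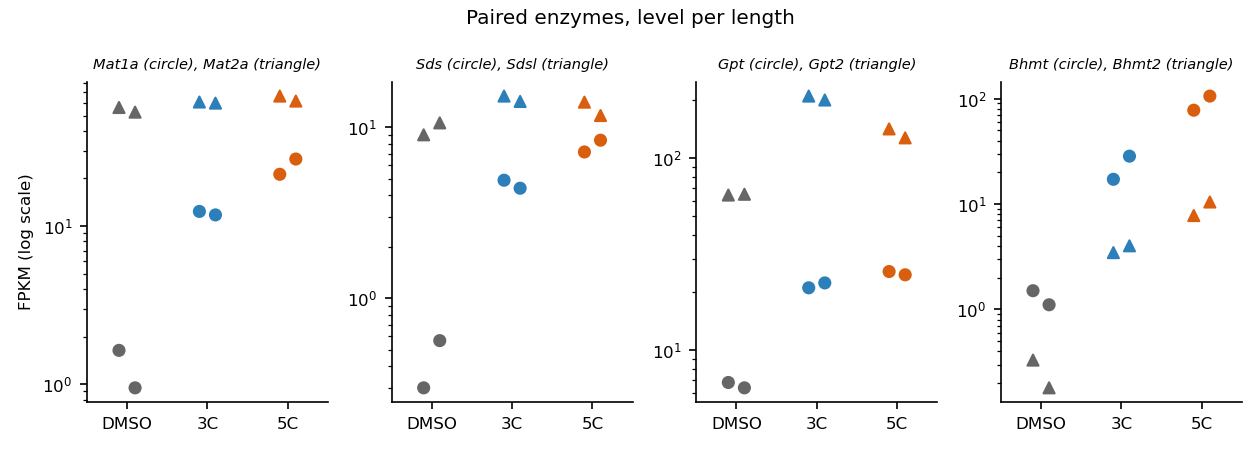
FPKM (y axis, log scale) of 4 pairs of related enzymes in each library of DMSO, 3C and 5C (x axis), with circles for the first and triangles for the second gene named above each panel. Mat1a nears Mat2a and Sds nears Sdsl in the cocktails, Gpt2 stays above Gpt, and Bhmt stays above Bhmt2 in all 6 libraries.

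For proline, Prodh and Prodh2 (proline and hydroxyproline oxidation) and ornithine aminotransferase (Oat) took 3 courses. Prodh measured 7.24 and 9.04 CPM in DMSO, 26.0 and 21.0 in 3C, and 13.4 and 13.2 in 5C, was called in 3C (1.50 ± 0.16 SE, adjusted p = 0.000159) but not in 5C (0.73 ± 0.16 SE, adjusted p = 0.00805), with a log2 difference of -0.77 ± 0.16 (SE, adjusted p = 0.0125) in 5C against 3C. Prodh2, whose promoter holds the HNF1 match 130 bases before the start, measured 1.27 and 0.774 CPM in DMSO, 6.48 and 5.58 in 3C, and 6.99 and 6.15 in 5C and was called in both (2.71 in 5C and 2.53 in 3C). The difference of Prodh2 between the cocktails was 0.17 ± 0.25 (SE, adjusted p = 0.758). Oat, one of the most abundant members in DMSO, measured 203 and 194 CPM in DMSO, 167 and 165 in 3C, and 276 and 281 in 5C. The 3 groups of Oat did not overlap, with 3C lowest and 5C highest, and its values were -0.29 ± 0.06 (SE, adjusted p = 0.0105) in 3C against DMSO, 0.51 ± 0.06 (SE, adjusted p = 0.000358) in 5C against DMSO and 0.80 ± 0.06 (SE, adjusted p = 0.000258) in 5C against 3C.

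Among the enzymes of glutamine, glutamate and transamination, both alanine aminotransferases were called higher in both cocktails and the aspartate aminotransferases were not called. Gpt measured 11.7 and 11.3 CPM in DMSO, 42.5 and 44.1 in 3C, and 49.7 and 49.0 in 5C, with 22.7% antisense overlap, and Gpt2, its mitochondrial relative, measured 249.7 and 265 CPM in DMSO, 861 and 804 in 3C, and 563 and 519.7 in 5C. Gpt was called with 2.12 ± 0.09 (SE, adjusted p = 5.97e-07) in 5C and 1.88 ± 0.09 (SE, adjusted p = 2.08e-06) in 3C, and Gpt2 with 1.09 ± 0.08 (SE, adjusted p = 8.94e-06) and 1.66 ± 0.08 (SE, adjusted p = 1.98e-06). In 5C against 3C, Gpt2 gave -0.57 ± 0.07 (SE, adjusted p = 0.00183), and per length it exceeded Gpt 9.47 to 10.2 times in DMSO, 8.97 to 9.97 times in 3C and 5.17 to 5.53 times in 5C. Liver glutaminase Gls2 was low, with 0.774 and 0.410 CPM in DMSO, 1.54 and 1.96 in 3C, and 0.941 and 1.81 in 5C, and was called in 3C (1.53 ± 0.48 SE, adjusted p = 0.0468) but not in 5C (1.24 ± 0.48 SE, adjusted p = 0.089). Gls2 lost the 3C call without DMSO replicate 2 (adjusted p = 0.181), 3C replicate 1 (0.101) or 3C replicate 2 (0.208), with log2 fold changes of 1.16, 1.70 and 1.35. Glud1, glutamate dehydrogenase, measured 427 and 446 CPM in DMSO, 568 and 549.5 in 3C, and 447 and 416 in 5C, so that both 3C libraries lay above the others, and 10.4% of its exon bases overlap genes on the other strand. Its log2 fold change was 0.32 ± 0.07 (SE, adjusted p = 0.00812) in 3C against DMSO and -0.32 ± 0.07 (SE, adjusted p = 0.0157) in 5C against 3C. Cytosolic Got1 measured 135 and 140.3 CPM in DMSO, 122 and 122 in 3C, and 108 and 110.0 in 5C, lower in every cocktail library than in DMSO (-0.32 in 5C, -0.21 in 3C). Mitochondrial Got2 measured 171 and 169 CPM in DMSO, 238 and 228 in 3C, and 237 and 239.7 in 5C, higher in every cocktail library (0.51 in 5C, 0.43 in 3C). Got1 and Got2 were near equal per length in DMSO (Got2 0.977 to 1.03 times Got1) and apart in 5C (1.77 to 1.79 times). However, 30.7% of the words of Got2 occur in other genes, with Got2-ps1 sharing the most. Antisense overlap was 19.1% for Got2 and 16.6% for Gls2.

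Of lysine and branched-chain breakdown, Aass, the first enzyme of lysine breakdown, was called in both cocktails (1.55 and 0.986 CPM in DMSO, 10.9 and 8.53 in 3C, and 15.4 and 16.6 in 5C). Its log2 fold change was 3.68 ± 0.24 (SE, adjusted p = 7.05e-06) in 5C and 2.91 ± 0.24 (SE, adjusted p = 3.46e-05) in 3C. Bckdha and Ivd, of branched-chain keto acid oxidation, were not called, with log2 fold changes between -0.02 and 0.37. Levels of Bckdha overlapped in 5C and DMSO, and 59.2% of its exon bases overlap B3gnt8 on the other strand. Means over the 3 groups were 36.0 to 41.3 FPKM for Bckdha and 9.18 to 12.1 FPKM for Ivd.

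The direct comparison of the cocktails asked what forskolin and salidroside, added together, changed, and their parts cannot be told apart. In 5C against 3C, 7 of 42 members were called higher and 0 lower, beside 2.16% called higher and 0.852% called lower among all genes. The 7 were Haao (2.77), Uroc1 (2.77), Bhmt (2.05), Hpd (1.50), Hgd (1.35), Bhmt2 (1.33) and Mat1a (1.03), in log2. A further 4 were higher at an adjusted p under 0.05 short of the fold threshold (Oat, Aass, Kmo and Ftcd), and 5 were lower (Cbs, Prodh, Gpt2, Gldc and Glud1, from -0.96 to -0.32). With no fold limit, 16 of 42 members had an edgeR adjusted p under 0.05 in either direction, beside 2423 of all 19135 genes tested. The median over the 42 was 0.18, beside -0.011 over all genes. Of 42 members, 6 were lower at an unadjusted p under 0.05, and DESeq2 called 0 lower. With 1 library left in a group and the spread taken from the others, leaving out 3C replicate 1 gave 3 calls, and leaving out 5C replicate 2 gave 2. Mat1a missed the threshold without 3C replicate 1 (log2 fold change 1.08, adjusted p = 0.141), 3C replicate 2 (0.98, 0.172) or 5C replicate 2 (0.80, 0.0984). Bhmt missed it without 5C replicate 2 (1.76, adjusted p = 0.0876), and Bhmt2 without 3C replicate 1 (1.24, 0.0575) or 5C replicate 2 (1.05, 0.0538). For the genes other than Mat1a, calls were lost on the adjusted p alone, with log2 fold changes still above 1. The 7 genes lie on 6 chromosomes in GRCm39: Uroc1 at chr6:90310266-90341740, Haao at chr17:84138583-84155392, Hpd at chr5:123309870-123320817, Hgd at chr16:37400515-37452388, Mat1a at chr14:40826926-40846384, and the neighbours Bhmt at chr13:93753183-93774469 and Bhmt2 at chr13:93792228-93811228. Between the cocktails, 3 of the 13 hepatocyte markers (Fga, Fgb and Fgg) were called higher with 5C, and 1 of the 14 macrophage markers (Marco) was called lower. Of the mesothelial markers 4 of 6, of the endothelial 4 of 9 and of the stellate and fibroblast markers 1 of 11 were called higher, and of the cholangiocyte markers 1 of 8 was called lower. Their part in the differences between the cocktails was not tested.

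**Figure D4:**
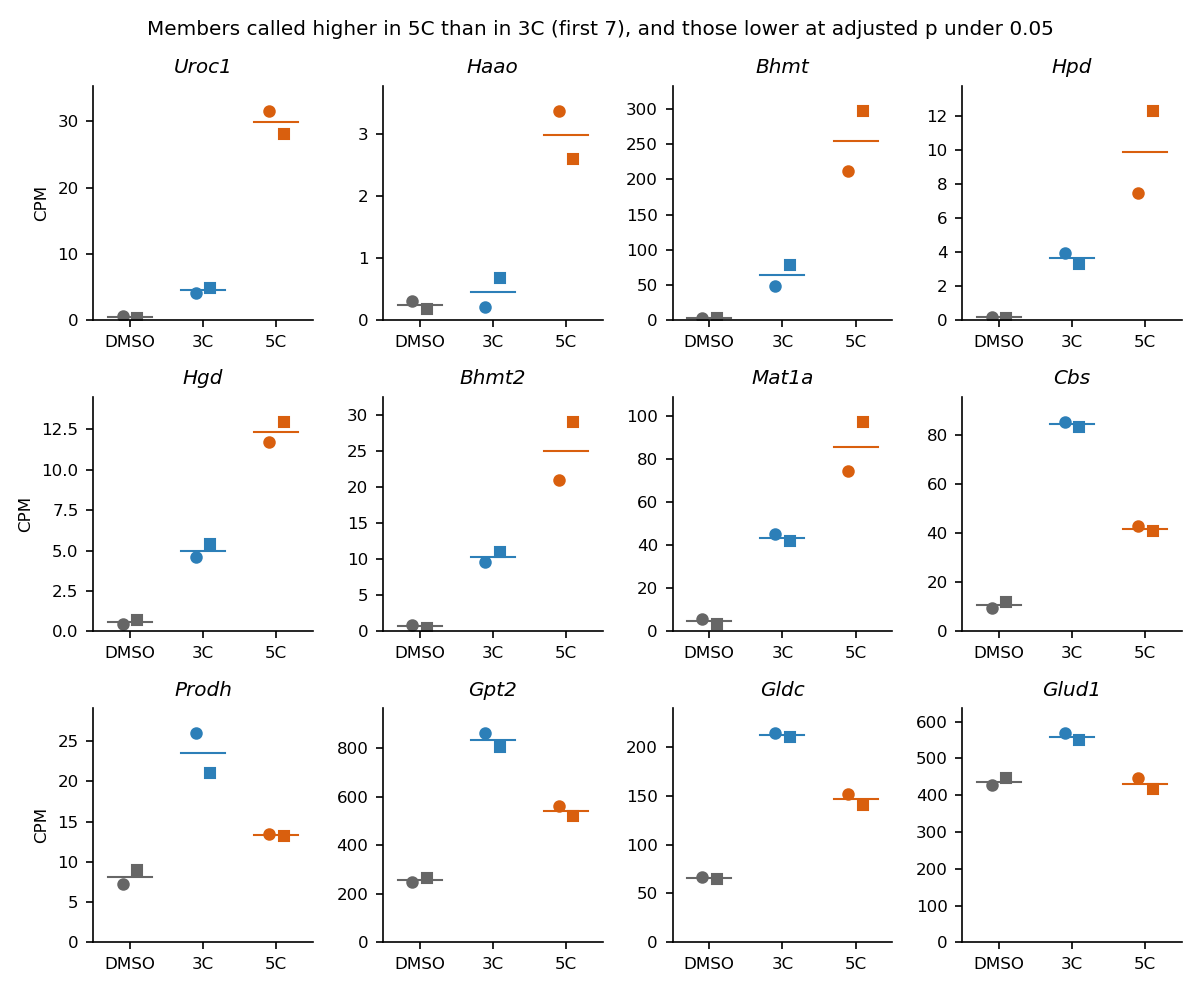
CPM in each library (y axis, from 0, a scale per panel) of the 7 members called between the cocktails and the 5 with lower values in 5C at an adjusted p under 0.05, with circles for replicate 1, squares for replicate 2 and lines at the mean. Cbs, Prodh, Gpt2, Gldc and Glud1 peak in 3C. The 12 genes were picked by the test of 5C against 3C, so that the gap between those libraries is no further support.

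Genes of these pathways outside the 43 were looked up as well. Among all genes tested, edgeR called 7.3% higher and 4.42% lower in 5C than in DMSO, and 5.83% and 3.62% in 3C. The share of all genes at an unadjusted p under 0.05 was not computed. Gstz1, which acts between Hgd and Fah, measured 31.2 and 30.4 CPM in DMSO, 71.2 and 69.6 in 3C, and 64.4 and 77.7 in 5C. It was called in both and had 27.7% antisense overlap. Among 11 tested serine and glycine genes, 6 were called higher in 5C and 5 in 3C. Hao1, glycolate oxidase, was called in both and was also higher in 5C than in 3C by 1.76 ± 0.29 (SE, adjusted p = 0.00516), with 0.194 and 0.334 CPM in DMSO, 2.23 and 3.02 in 3C, and 7.63 and 9.59 in 5C. Dmgdh, which takes up the dimethylglycine that Bhmt releases, measured 0.953 and 0.334 CPM in DMSO, 8.35 and 11.2 in 3C, and 20.4 and 30.0 in 5C. Of its exon bases 10.8% overlap genes on the other strand, Bhmt2 among them. Of 13 other methionine and cysteine genes, 4 were called higher in 5C and 3 in 3C, with Cdo1, cysteine dioxygenase, at 44.8 and 34.8 CPM in DMSO, 184 and 167 in 3C, and 130.2 and 199.8 in 5C. Of 5 other histidine and folate genes, 3 were called higher in each cocktail. Of 7 other tryptophan and NAD genes, 2 were called higher in 5C and 1 in 3C, of 5 other proline genes 1 in each, and of 3 other lysine genes 1 in 3C. In these lists edgeR and DESeq2 called 0 genes lower. At an unadjusted p under 0.05, 3 methionine and cysteine genes were lower in each cocktail, and 3 proline genes, 1 serine and glycine gene and 1 histidine and folate gene in 3C. Of 19 other branched-chain genes, edgeR and DESeq2 each called 0 higher against DMSO in either cocktail, with 9 higher and 2 lower at an unadjusted p under 0.05 in 5C, and 8 and 2 in 3C. The 3 serine synthesis genes gave 0 calls in either direction by both tools, with 0 higher and 1 lower at that unadjusted p in 5C, and 1 higher and 1 lower in 3C. Of 5 other glutamine and glutamate genes, 0 were called higher and 1 lower in each cocktail. Glutamine synthetase (Glul), which runs opposite to glutaminase, was called lower in both. It measured 491 and 510.2 CPM in DMSO, 248 and 248 in 3C, and 198 and 213 in 5C.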

How the data were processed

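RNA-seq libraries of dHeps at day 16 (2 each of DMSO, 3C and 5C) were analysed from tables per gene. The authors mapped reads to GRCm39. The submitters' processing notes name featureCounts, Subread and DESeq2, with neither versions nor roles. The deposited count table holds estimated counts, whole numbers that were not normalized, and excesses at 4 and 8 among low values leave the units per fragment unknown. The deposited FPKM were scaled by the authors for gene length and library total. Annotation release and strand setting are not given in the sources used here.

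All genes were fitted with edgeR 4.0.16 in R 4.3.3 (filterByExpr, TMM, robust quasi-likelihood F test, 1 coefficient per group, 3 residual degrees of freedom, common biological coefficient of variation 18.4%). Genes were grouped by label only. An adjusted p under 0.05 with an absolute log2 fold change above 1 was called, and SEs are those the F statistic implies. Folds against the floor used 12 units, or 3 fragments, per library in place of the DMSO counts. They include no spread between libraries, while the SEs include the spread that the fit estimated. With 2 libraries a group, an exact permutation test of a single value cannot go below p = 0.333. Members, pathway lists and marker lists were chosen with earlier results of these data known. All members could be named, and of other lists called genes with the largest changes (at most 3 per list and comparison), isoenzyme partners and markers. Gstz1 and the markers named outside that limit were chosen after their values were seen. Shared sequence is the share of 50-base words of a gene's longest transcript that occur in transcripts of any other gene (GENCODE, GRCm39). The code was tested on simulated data. Alternatives used DESeq2 1.42.0, limma 3.58.1 on log2(FPKM + 1) or log2(FPKM + 0.1), other scaling (RLE and upper quartile), filters and thresholds, a replicate block and leaving out replicates. Dividing the counts by 4 was chosen after seeing the data. A comparison of the proteins was not run, and some genes of the lists outside the members are not reported here. Figures were drawn with matplotlib.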

Additional observations from a re-analysis of the deposited data

Results flagged for a closer look

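Oat, ornithine aminotransferase, moved in opposite directions against DMSO in the cocktails, with log2 fold changes of -0.29 in 3C and 0.51 in 5C. The difference itself passed edgeR's test, at 0.80 in 5C against 3C (adjusted p = 0.000258), and was 0.75 to 0.82 over the 16 alternatives. The 3 groups did not overlap. Glud1, glutamate dehydrogenase, was higher in 3C than in DMSO (0.32, adjusted p = 0.00812) and at -0.00 in 5C, where its level overlapped DMSO. The difference of 5C from 3C was -0.32 (adjusted p = 0.0157), with the highest adjusted p over the alternatives at 0.162. Both differences are short of the fold threshold.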

How the results depend on the processing

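The members called higher against DMSO numbered 23 to 33 in 5C and 22 to 33 in 3C over all 16 alternatives. With no limit on the fold change, 2 members were lower in 5C than in DMSO (Cth and Got1), 2 lower in 3C (Oat and Got1), and 11 higher and 5 lower in 5C than in 3C. In either direction, 5485 of all 19135 genes tested passed this looser threshold in 5C against DMSO. For 3C against DMSO and 5C against 3C, 4689 and 2423 passed. The median log2 fold change of the members was 1.19 in 5C and 1.11 in 3C on log2(FPKM + 1), with and without a filter, and 1.63 in 5C on log2(FPKM + 0.1), since a pseudocount shrinks low genes. Without a filter, log2(FPKM + 1) left 1 member higher in 5C than in 3C (Uroc1). Leaving out a replicate gave 2 to 6 members called higher in 5C than in 3C, 25 to 26 in 5C and 24 to 27 in 3C against DMSO. Bhmt also lost its call between the cocktails without a filter on low counts and with the 4 libraries alone.

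Some values changed sign, all of members or medians with no call in that comparison. Glud1 in 5C against DMSO was 0.00038 with upper quartile factors, 0.0016 with at least 10 counts in every library, 0.0012 in DESeq2 and 0.00019 with counts divided by 4. Qprt in 5C against 3C was -0.00275 on log2(FPKM + 1), with or without a filter, and -0.00302 on log2(FPKM + 0.1). Leaving out replicates gave, against DMSO, -0.42 to 0.22 for Hal, -0.043 to 0.044 for Glud1 and -0.055 to 0.024 for Bckdha in 5C, and -0.26 to 1.44 for Haao in 3C. In 5C against 3C it gave -0.024 to 1.27 for Ido2, -0.17 to 0.052 for Shmt1 and for the serine and glycine median, -0.86 to 0.66 for Afmid, -0.0076 to 0.088 for Qprt, -0.87 to 0.10 for Gls2, -0.0021 to 0.17 for Fah, -0.084 to 0.56 for Hal and -0.22 to 0.0067 for the glutamine median. The cause of these reversals was not tested.

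Same-numbered libraries showed no shared deviation across genes. Their deviations from the group means correlated at 0.00043, -0.031 and 0.016 in the 3 comparisons. This cannot show whether same-numbered libraries shared an animal or a batch. With the replicate number as a block, the 3C calls of Acmsd (1.18, adjusted p = 0.0534), Agxt (2.61, 0.0703) and Gls2 (1.50, 0.077) and the call of Mat1a between the cocktails (1.03, 0.0577) were lost, and no other member lost its call. Over all alternatives, the 3C call was kept in 7 of 16 for Acmsd, 6 of 15 for Agxt and 9 of 16 for Gls2. On log2(FPKM + 1), Shmt1 fell short of the fold threshold in 5C (0.89) and 3C (0.98). So did Amt in 3C (0.86), and Acmsd (0.56) and Agxt (0.64) in 5C. Hpd and Agxt (at or under 3 fragments in DMSO) and Haao and Agxt2 (at most 21 units in both DMSO libraries) are limited by depth.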

Other observations

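Of 14 amino acid transporters, 6 were called higher in 5C and 5 in 3C than in DMSO, beside 7.3% and 5.83% of all genes. By edgeR and DESeq2, 0 were called lower, beside 4.42% and 3.62% of all genes in edgeR. At an unadjusted p under 0.05, 1 in 5C and 3 in 3C were lower. Slc3a1, which carries cystine and basic amino acids with its partner, had 26.8% antisense overlap. It measured 1.10 and 0.880 CPM in DMSO, 8.21 and 7.90 in 3C, and 9.70 and 9.42 in 5C. Slc6a13 and Slc38a3, the latter a glutamine transporter, were called in both, with log2 fold changes of 1.91 and 1.53 in 5C and 2.14 and 1.84 in 3C. Slc43a1, a carrier of large neutral amino acids, was called between the cocktails (1.37 ± 0.22 SE, adjusted p = 0.00432), with 3.92 and 3.28 CPM in DMSO, 2.45 and 2.39 in 3C, and 5.99 and 6.09 in 5C.

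Among 14 regulators of amino acid breakdown, 5 were called higher in 5C and 6 in 3C, beside 7.3% and 5.83% of all genes. Both edgeR and DESeq2 called 0 lower, beside 4.42% and 3.62% of all genes in edgeR. At an unadjusted p under 0.05, 2 were lower in 5C and 1 in 3C. Between the cocktails both tools called 0, beside 2.16% higher and 0.852% lower of all genes in edgeR. At that unadjusted p, 2 were higher and 5 lower in 5C. Gcgr, the glucagon receptor, measured 1.33 and 0.334 CPM in DMSO, 5.13 and 4.16 in 3C, and 15.6 and 14.9 in 5C, and its difference between the cocktails did not pass the threshold (1.77 ± 0.48 SE, adjusted p = 0.0656). Ppara, a nuclear receptor of fasting metabolism, measured 5.18 and 4.20 CPM in DMSO, 21.4 and 18.1 in 3C, and 13.1 and 16.9 in 5C, and Creb3l3, a liver transcription factor, 38.6 and 37.4 CPM in DMSO, 127 and 119.8 in 3C, and 125 and 123 in 5C. Antisense overlap was 21.6% for Gcgr and 27.4% for Ppara. Of 8 tested amino acid response genes, edgeR and DESeq2 called 0 in either direction against DMSO, beside the shares of all genes given above. At an unadjusted p under 0.05, 3 were higher and 2 lower in 5C, and 2 higher and 5 lower in 3C.

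Bcat1, a branched-chain aminotransferase with little expression in adult hepatocytes, was called lower in 3C than in DMSO (-2.28 ± 0.31 SE, adjusted p = 0.00392) and higher in 5C than in 3C (1.49 ± 0.31 SE, adjusted p = 0.033), with 45.7 and 50.0 CPM in DMSO, 7.40 and 12.8 in 3C, and 22.1 and 32.4 in 5C. Pemt, which makes phosphatidylcholine from S-adenosylmethionine, was called higher in 5C than in 3C (1.26 ± 0.27 SE, adjusted p = 0.0162) and measured 2.67 and 3.91 CPM in DMSO, 4.65 and 5.76 in 3C, and 9.63 and 14.4 in 5C.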
